A study of Rattus norvegicus with 4 samples.

Results

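The mitochondrial genome encodes a small part of the respiratory chain, and the nucleus supplies the proteins that copy it, transcribe it and shape the organelle that holds it. 10 nuclear genes of this machinery were followed in rat dorsal root ganglia (DRG): the regulators Ppargc1a and Nrf1, the transcription proteins Tfam, Tfb2m, Polrmt and Tefm, the DNA polymerase Polg, the fusion GTPases Mfn2 and Opa1, and the fission GTPase Dnm1l. They were chosen by symbol for these functions, and all 10 symbols are among the 22293 protein-coding genes of the deposited table, which holds 33506 genes in all. Lumbar DRG of neonatal wild-type Wistar rats were compared after cisplatin, a platinum chemotherapeutic that binds DNA, or after vehicle. Cisplatin was given intraperitoneally at 0.3 mg/kg at postnatal day (P)14 and P16, and control rats received phosphate-buffered saline. The paper dates the tissue to P23, whereas the labels give 16 days after treatment. Each group had 2 libraries, and each library held 2 to 5 pooled DRG. Rats of both sexes were used in the study, and which sex each library came from is not given in the sources used here.

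In DRG the somata of sensory neurons lie among satellite glia, Schwann cells and other cells. Sensory neurons carry mitochondria along very long axons, and fusion, fission and transport set where those mitochondria sit. PGC-1α, the product of Ppargc1a, is a coactivator that works with nuclear respiratory factor 1 (Nrf1) and with GABPA (also called NRF-2) at promoters of nuclear mitochondrial genes. TFAM packages mitochondrial DNA and bends its promoters, TFB2M opens them, POLRMT is the polymerase that transcribes them, and TEFM keeps that polymerase elongating. MFN2 fuses outer membranes, OPA1 fuses inner membranes and holds cristae in shape, and DRP1, the product of Dnm1l, constricts the organelle to divide it.

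The libraries held between 21384801 and 25618417 counts. In the cell-type markers, sensory neuron genes summed to between 26019 and 41969 CPM (counts scaled to library depth) and Schwann cell genes to between 48159 and 158820 CPM. Schwann cell markers were lower in both replicate 1 libraries, at 61626 (vehicle) and 48159 CPM (cisplatin), than in both replicate 2 libraries, at 158820 and 138560 CPM. Skeletal muscle markers summed to 730.7 CPM in vehicle replicate 1 and to 20.3, 69.9 and 20.4 CPM in vehicle replicate 2 and cisplatin replicates 1 and 2. Of the defining markers, Cldn5 of endothelium and Ucp1 of adipocytes were listed at 0 in every library. In whole ganglia, fewer cells of a type and less RNA per cell cannot be told apart.

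**Figure D1:**
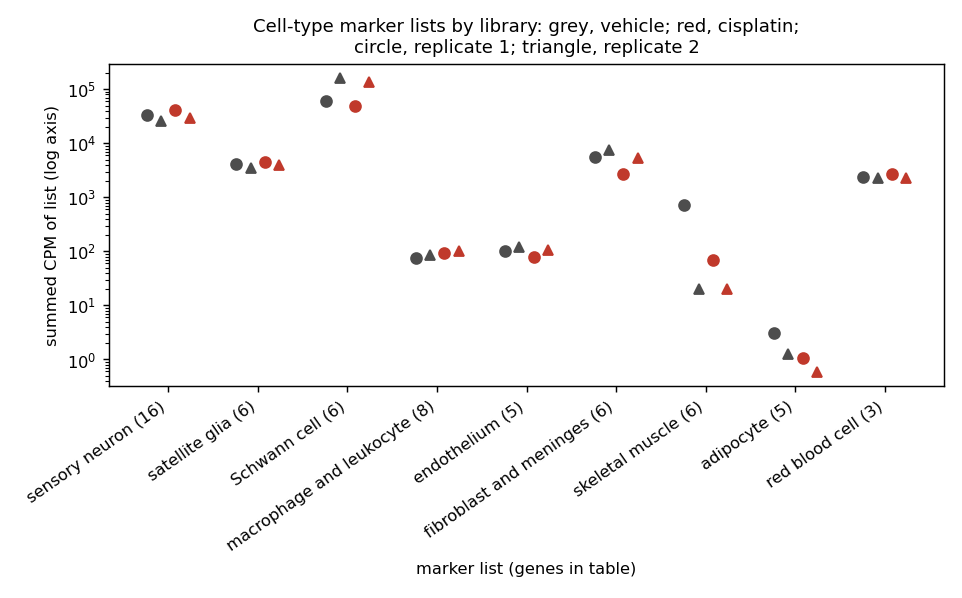
Summed CPM (log axis) of 9 cell-type marker lists in each library, with vehicle in grey, cisplatin in red, circles for replicate 1 and triangles for replicate 2. The Schwann cell list separates the replicate numbers more than the treatments, and the skeletal muscle list is highest in vehicle replicate 1 at 730.7 CPM.

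Levels of the 10 genes were compared per length, as FPKM (fragments scaled to gene length and library depth). Dnm1l was the most abundant in vehicle-treated DRG at 30.1 ± 11.2 FPKM (SD, n = 2), followed by Opa1 at 22.0 ± 3.58, Tfam at 17.9 ± 0.770 and Polg at 15.1 ± 0.620 FPKM. The vehicle ranges of Dnm1l and Opa1 overlapped, although Opa1 was the lower within each vehicle library, at 0.646 and 0.880 of Dnm1l. Each later neighbour in the vehicle order was apart, Polrmt and Nrf1 by a narrow gap (6.53 against 6.49 FPKM). Tfb2m stood at 8.57 ± 0.447, Polrmt at 6.56 ± 0.0401, Nrf1 at 6.03 ± 0.650, Tefm at 3.88 ± 0.807 and Ppargc1a at 1.5 ± 0.264 FPKM. Among all genes tested, Dnm1l exceeded 79.6% by mean FPKM and Ppargc1a exceeded 17.6%. Dnm1l and Opa1 thus lay high and the coactivator low in the range of tested genes. The third GTPase gene, Mfn2, had the lowest level of the 10 in its own row, at 0.00855 FPKM in vehicle. A second row with the same protein name had 1.15 FPKM in vehicle, so the level of Mfn2 is uncertain. In cisplatin-treated DRG the order was Dnm1l, Tfam, Opa1, Polg, Tfb2m, Nrf1, Polrmt, Tefm and Ppargc1a, with overlapping ranges for Polg and Tfb2m.

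Promoter sequence was taken from RefSeq (build GRCr8) to show the binding motifs through which NRF1 and GABPA are known to reach nuclear mitochondrial genes. A promoter was found for 9 of the 10 genes, all but Mfn2. In the 250 bases before the start site, on both strands, the NRF1 motif GCGCANGCG was present in 2 of the 9, Opa1 and Tfb2m, and in 5.09% of 33469 promoters. The GABPA motif CCGGAAG was present in 4 of the 9, Polg, Polrmt, Tefm and Tfam, and in 7.27% of all promoters. Among the 11854 promoters that matched a tested gene by symbol, the shares were 10.3% and 12.7%. No promoter of the 9 held both motifs. The stretches around each match are shown 5′ to 3′ on the strand of the gene, with the motif in capitals, read in reverse complement for Polrmt and Tfb2m. They are placed on the minus strand at chr11:84690006-84690054 (Opa1), chr13:93828612-93828660 (Tfb2m), chr1:142808933-142808979 (Polg) and chr10:65622043-65622081 (Tefm), and on the plus strand at chr7:10610127-10610173 (Polrmt) and chr20:17355297-17355343 (Tfam).
Opa1: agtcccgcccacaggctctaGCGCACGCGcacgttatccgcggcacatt
Tfb2m: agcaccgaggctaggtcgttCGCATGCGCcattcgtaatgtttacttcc
Polg: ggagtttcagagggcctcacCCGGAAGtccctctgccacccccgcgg
Polrmt: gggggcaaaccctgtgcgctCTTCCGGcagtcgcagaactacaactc
Tefm: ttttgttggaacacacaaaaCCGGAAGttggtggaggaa
Tfam: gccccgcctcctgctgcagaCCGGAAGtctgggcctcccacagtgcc
The 2 promoters with an NRF1 match belong to the gene with the lowest log2 fold change of the 9 (Opa1) and the gene with the highest (Tfb2m). Of the 4 genes with a GABPA match, Polg, Polrmt and Tefm had log2 fold changes of -0.28, -0.31 and -0.33, and Tfam had 0.04. A relation between motif and direction was not tested. A match is a description of these letters, and binding was not measured.

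Cisplatin was compared with vehicle in the counts of 14719 protein-coding genes by edgeR's quasi-likelihood test. Calls required 1.5-fold or more in either direction and a Benjamini-Hochberg adjusted p below 0.05. Of the 10 mitochondrial genes, 9 passed the filter on low counts and were tested, and 0 were called, where 0.00679% of all genes tested were called. DESeq2 also called 0 of them, where 0.699% of its genes were called, and limma on FPKM called 0. Adding replicate number to the model as a block, edgeR called 0 of the 9, where 11.3% of all genes were called (3.59% higher, 7.72% lower), and with a length correction added 0 of the 9, where 7.35% were called. At an unadjusted p under 0.05, edgeR placed 1 of the 9 lower, Opa1, where 9.57% of all genes passed in either direction. In 6 of the 9 the cisplatin and vehicle libraries did not overlap in CPM, against 41.8% of all genes. Both cisplatin libraries lay above both vehicle libraries in 1 gene, Tfb2m, against 20.6% of all genes, and below in 5 genes, Opa1, Polg, Polrmt, Tefm and Ppargc1a, against 21.2%. The median log2 fold change of the 9 was -0.28, beside -0.01 over all genes tested. Without vehicle replicate 1 this median was -0.10. For any one gene, exact permutation of 2 against 2 libraries (two-sided) cannot give a p below 0.333.

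**Figure D2:**
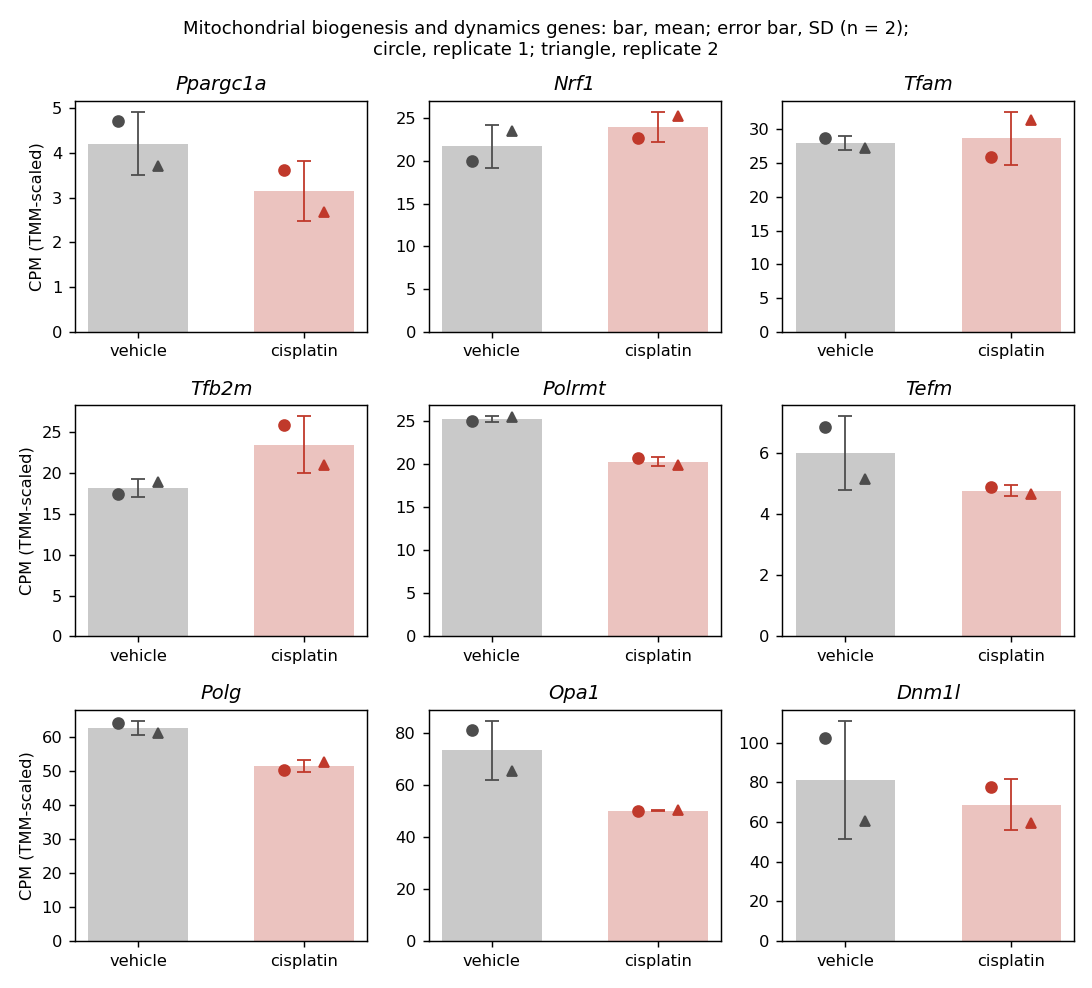
CPM (TMM-scaled) of the 9 tested genes in vehicle (grey) and cisplatin (red) DRG, with the bar at the mean, the error bar at SD (n = 2), circles for replicate 1 and triangles for replicate 2; each axis starts at 0. The groups do not overlap in 6 panels, with Tfb2m higher and Opa1, Polg, Polrmt, Tefm and Ppargc1a lower in cisplatin, and overlap for Nrf1, Tfam and Dnm1l.

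Of the 2 regulators, Ppargc1a (chr14:63095720-63187009 in Rnor_6.0, plus strand) had 118 and 73 counts in the vehicle libraries and 92 and 63 in the cisplatin libraries, replicate 1 first here and throughout. In CPM these were 4.71 and 3.71 against 3.62 and 2.68, so both cisplatin libraries lay below both vehicle libraries, the nearest pair by a narrow gap. The log2 fold change was -0.42 ± 0.34 (SE), with a 95% interval of -1.26 to 0.42 and an adjusted p of 0.691 in edgeR. Ppargc1a is strongly expressed in oxidative muscle, and vehicle replicate 1, which held the most muscle marker RNA, also held the most Ppargc1a. Without that library the log2 fold change was -0.23. It was as small, -0.22, without cisplatin replicate 2, in which muscle markers were low, and larger in size without cisplatin replicate 1 (-0.65) or vehicle replicate 2 (-0.58). The part of muscle RNA in this difference was not tested. Nrf1 (chr4:57378069-57445341, plus strand) had 500 and 463 counts in vehicle and 577 and 594 in cisplatin, which is 19.97 and 23.5 against 22.7 and 25.2 CPM. The groups overlapped, and the log2 fold change was 0.14 ± 0.21 with an interval of -0.37 to 0.65. Leaving out each library in turn gave 0.04 to 0.27.

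Paired regulators were read from the same fit. Ppargc1b, which encodes the related coactivator PGC-1β, had 50 and 26 counts in vehicle and 18 and 13 in cisplatin, with a log2 fold change of -1.39 ± 0.47 and an adjusted p of 0.509 in edgeR. All 4 of its counts are low, and its groups did not overlap. Pprc1, the third member of the coactivator family, lay lower in both cisplatin libraries with a log2 fold change of -0.16 ± 0.19, which turned to 0.06 with a correction for gene length. Gabpa overlapped between groups at -0.05 ± 0.22, and 0.14 with the length correction. None of these paired regulators passed the test.

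The transcription proteins differed from each other in direction. Tfam (chr20:18594037-18606151, plus strand) had 718 and 537 counts in vehicle and 658 and 740 in cisplatin, which is 28.7 and 27.3 against 25.9 and 31.5 CPM. The cisplatin libraries lay on either side of the vehicle libraries, and the log2 fold change was 0.04 ± 0.20 with an interval of -0.46 to 0.54. Its sign turned to -0.08 with a correction for gene length and to -0.03 with library size alone as the scale. Tfb2m (chr13:97820493-97838228, minus strand) had 436 and 373 counts in vehicle and 659 and 494 in cisplatin, which is 17.4 and 18.9 against 25.9 and 21.0 CPM. It was the only gene of the 9 with both cisplatin libraries above both vehicle libraries, at a log2 fold change of 0.37 ± 0.22, an interval of -0.17 to 0.91 and an adjusted p of 0.595 in edgeR. Its value was 0.22 without cisplatin replicate 1 and 0.51 without cisplatin replicate 2.

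Polrmt (chr7:12840938-12851153, plus strand) had 625 and 501 counts in vehicle and 525 and 469 in cisplatin. In CPM its replicates were close, at 25.0 and 25.5 in vehicle and 20.7 and 19.9 in cisplatin, and the groups did not overlap. The log2 fold change was -0.31 ± 0.19, with an interval of -0.78 to 0.16 and an adjusted p of 0.604 in edgeR. With the length correction it was -0.19. Tefm (chr10:67475968-67479077, minus strand) had 171 and 101 counts in vehicle and 124 and 109 in cisplatin, which is 6.83 and 5.13 against 4.88 and 4.63 CPM. Vehicle replicate 1 was the high library, and the log2 fold change of -0.33 ± 0.29 was -0.10 without it. The partner Tfb1m, a methyltransferase of mitochondrial ribosomal RNA related to Tfb2m, overlapped between groups at -0.10 ± 0.30.

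The balance among these genes was read within each library as a ratio of FPKM values. Tfb2m over Polrmt, the melting factor over its polymerase, was 1.26 and 1.35 in vehicle and 2.27 and 1.91 in cisplatin. Since Tfb2m lay above and Polrmt below in both cisplatin libraries, this ratio could not overlap between groups. It adds nothing to the values of each gene. Tfam over Polrmt was 2.83 and 2.64 in vehicle and 3.09 and 3.89 in cisplatin, and Tfam over Polg was 1.19 and 1.19 against 1.37 and 1.59. These ratios join genes whose own differences did not pass the test, and they were not tested.

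Polg (chr1:141172531-141188031, minus strand) encodes the catalytic subunit of the polymerase that copies mitochondrial DNA. It had 1607 and 1205 counts in vehicle and 1276 and 1242 in cisplatin, which is 64.2 and 61.2 against 50.2 and 52.8 CPM. The replicates were close and the groups did not overlap, with a log2 fold change of -0.28 ± 0.17, an interval of -0.71 to 0.14 and an adjusted p of 0.601 in edgeR. With the length correction the log2 fold change was -0.14. Its accessory subunit Polg2 and the replicative helicase Twinkle, listed as Peo1, overlapped between groups at -0.16 ± 0.31 and -0.07 ± 0.24. Polg lies 48 bases from Fanci on the other strand and Tfb2m 133 bases from Cnst. No gene overlaps any of the 10 in the deposited coordinates.

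Opa1 (chr11:74720254-74793803, minus strand) showed the largest difference of the 9. It had 2035 and 1284 counts in vehicle and 1268 and 1183 in cisplatin, which is 81.3 and 65.2 against 49.9 and 50.3 CPM. Both cisplatin libraries lay below both vehicle libraries and close to each other. The log2 fold change was -0.55 ± 0.19, with an interval of -1.03 to -0.07, a p of 0.0321 before adjustment and an adjusted p of 0.509 in edgeR. The mean was 0.684 of that in vehicle, short of the 1.5-fold limit. Leaving out each library in turn gave -0.37 to -0.70, lowest in size without vehicle replicate 1. Oma1, a protease that cleaves OPA1 under stress, overlapped between groups at 0.10 ± 0.38. The row of Yme1l1, the other OPA1 protease, held 0, 1, 1 and 0 counts and was not tested, and a second row with the same protein name held 225 and 141 in vehicle and 101 and 471 in cisplatin.

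Mfn2 (chr5:164562149-164585634, minus strand) could not be read from its own row, which held 1 and 0 counts in vehicle and 1 and 0 in cisplatin and did not pass the filter. A neighbouring row, LOC100911485 (chr5:164684509-164714145, minus strand), carries the same protein name, mitofusin-2, and lies 98874 bases away. It held 137 and 73 counts in vehicle and 168 and 182 in cisplatin, so both cisplatin libraries lay above both vehicle libraries. Its log2 fold change was 0.64 ± 0.32, with an interval of -0.15 to 1.43 and an adjusted p of 0.551 in edgeR, and both rows summed gave 0.64. How reads were divided between such copies is not given in the sources used here, so the level of Mfn2 is uncertain. Mfn1, the other mitofusin, had 1937 and 1595 counts in vehicle and 1835 and 1615 in cisplatin. Its log2 fold change was -0.17 ± 0.17, and -0.007 with the length correction. At 17.9 FPKM in vehicle, Mfn1 was far above both mitofusin-2 rows, of which the neighbouring row had 1.15 FPKM.

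Dnm1l (chr11:88830957-88880198, plus strand) had 2562 and 1187 counts in vehicle and 1977 and 1404 in cisplatin, which is 102 and 60.3 against 77.8 and 59.7 CPM. Both replicate 1 libraries lay above both replicate 2 libraries, and the treatments overlapped. Dnm1l was thus lowest in the libraries with the most Schwann cell marker RNA, and the part of cell composition was not tested. The log2 fold change was -0.24 ± 0.30, with an interval of -1.001 to 0.52, and it turned to 0.20 without vehicle replicate 1. Opa1 over Dnm1l in FPKM was 0.646 and 0.880 in vehicle and 0.522 and 0.686 in cisplatin, which overlapped. Mfn1 over Dnm1l overlapped too, at 0.462 and 0.822 in vehicle and 0.568 and 0.703 in cisplatin.

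The DRP1 receptors on the outer membrane gave mixed values. Fis1 had 4350 and 3837 counts in vehicle and 5792 and 5763 in cisplatin, with a log2 fold change of 0.36 ± 0.19 and an adjusted p of 0.568 in edgeR. With the length correction its log2 fold change was 0.20. Mff had 625 and 94 counts in vehicle and 55 and 75 in cisplatin, with a log2 fold change of -2.48 ± 0.78 and an adjusted p of 0.509 in edgeR. Vehicle replicate 1 decided its size, which was -0.83 without that library. A second Mff row held 63, 68, 30 and 73 counts, and how reads were divided between the rows is not given in the sources used here.

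**Figure D3:**
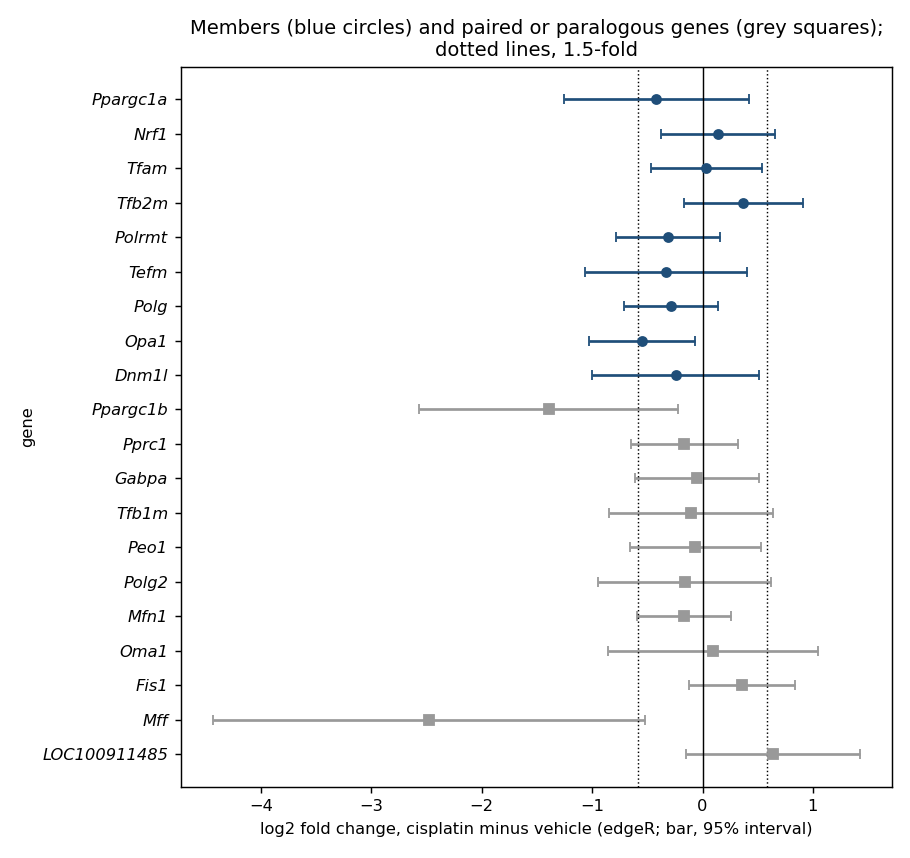
Log2 fold change (cisplatin minus vehicle) from edgeR with its 95% interval for the 9 tested genes (blue circles) and for 11 paired or related genes (grey squares); dotted lines mark 1.5-fold. Among the 9, the interval of Opa1, -1.03 to -0.07, alone lies wholly on one side of 0.

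Wider lists placed the 9 genes among their pathways. Of 128 tested genes in 6 lists, edgeR called 0, limma on FPKM called 0 and DESeq2 called 8, where DESeq2 called 0.699% of all its genes. At an unadjusted p under 0.05 in edgeR, 12 were higher and 6 lower, where 9.57% of all genes passed (550 higher, 858 lower). A gene is said to lie above or below where both cisplatin libraries did so against both vehicle libraries. By that separate measure, 20.6% of all genes tested lay above and 21.2% below. Among 20 biogenesis regulators, 10 lay below and 1 above, with a median log2 fold change of -0.16. That median was -0.06 with the length correction and -0.29 without cisplatin replicate 2. Hcfc1, a transcriptional cofactor that binds GABP and PGC-1 proteins, had the lowest value at -1.43 ± 0.29 and was called by DESeq2 with an adjusted p of 0.0410. With the length correction the edgeR value of Hcfc1 was -1.05. Sirt3, a mitochondrial deacetylase, was the 1 gene above, at 0.52 ± 0.19. Among 36 genes of mitochondrial DNA transcription, replication and RNA processing, 7 (19.4%) lay above and 6 (16.7%) below, shares near those of all genes, with a median of 0.01. That median ran from -0.03 (without cisplatin replicate 2) to 0.06 (without vehicle replicate 2) when each library was left out. Slirp, a stabiliser of mitochondrial transcripts, stood at 0.77 ± 0.20 and Mterf4, listed as Mterfd2, at 0.47 ± 0.26. The topoisomerase Top3a stood at -1.22 ± 0.32 and the nucleotide reductase subunit Rrm2b at -0.89 ± 0.28.

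Among 26 tested genes of fusion, fission and cristae, 9 (34.6%) lay above and 4 (15.4%) below, beside 20.6% and 21.2% of all genes, with a median of 0.09. That median was 0.03 without cisplatin replicate 1, 0.06 without vehicle replicate 2, and 0.16 without cisplatin replicate 2 or vehicle replicate 1. The cristae genes Apoo and Chchd6 stood at 0.57 ± 0.22 and 0.53 ± 0.19, and the DRP1 receptor Mief1 at -0.95 ± 0.26. DESeq2 called Mff from this list, with an adjusted p of 0.0382. In edgeR its log2 fold change of -2.48 was -0.83 without vehicle replicate 1. Among 16 genes of mitophagy and mitochondrial transport, 4 lay above and 4 below (25.0% each), near the shares of all genes, with a median of 0.03. It was 0.11 with the length correction, and 0.06 and 0.07 without cisplatin replicate 2 and vehicle replicate 1. The mitophagy receptors Bnip3 and Fundc1 stood at 0.35 ± 0.23 and 0.30 ± 0.17, the receptor Bcl2l13 at -0.63 ± 0.27 and the transport adaptor Trak1 at -0.32 ± 0.17.

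More content and mitochondrially encoded genes lay above than below. Of 17 mitochondrial content genes, 9 (52.9%) lay above and 2 (11.8%) below, beside 20.6% and 21.2% of all genes, with a median of 0.27. It was 0.18 without cisplatin replicate 1. The import receptor Tomm22 stood at 0.74 ± 0.20 and the dehydrogenase subunit Idh3a at 0.49 ± 0.21, whereas the import receptor Tomm70a stood at -0.69 ± 0.32 and the chaperone Hspa9 at -0.40 ± 0.26. Without vehicle replicate 1 these last values were -0.17 and -0.03. Of the 13 mitochondrially encoded genes, which POLRMT transcribes with TFAM and TFB2M, 12 (92.3%) lay above and 0 below, with a median of 1.20, which was 0.81 without vehicle replicate 1 and 1.76 without vehicle replicate 2. The sensory neuron markers had values in the same direction, with 6 of 16 above, 0 below and a median of 0.35. Their summed CPM overlapped between groups, at 33956 and 26019 in vehicle and 41969 and 29877 in cisplatin. Schwann cell markers had a median of -0.51 (0 of 6 above, 0 below) and fibroblast and meninges markers one of -0.44 (1 of 6 above, 3 below). Skeletal muscle markers had one of -3.41 (0 of 6 above, 0 below), adipocyte markers -1.20 (2 tested) and endothelium markers -0.31 (4 tested, 2 below). Satellite glia stood at -0.06, macrophages and leukocytes at -0.009 and red blood cells at -0.006. The part of cell composition in these lists was not tested. Mt-nd2 had 9764 and 23314 counts in vehicle and 75100 and 72075 in cisplatin, with a log2 fold change of 1.93 ± 0.61 and an adjusted p of 0.509 in edgeR. Mt-cox3 stood at 1.82 ± 0.73, and DESeq2 called 6 of the 13 higher, where it called 0.699% of all its genes in either direction. The mitochondrially encoded share of all counts was 1.46% and 2.52% in vehicle and 5.38% and 4.68% in cisplatin. Polyadenylated RNA was selected, and no measure of mitochondrial DNA was analysed here.

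**Figure D4:**
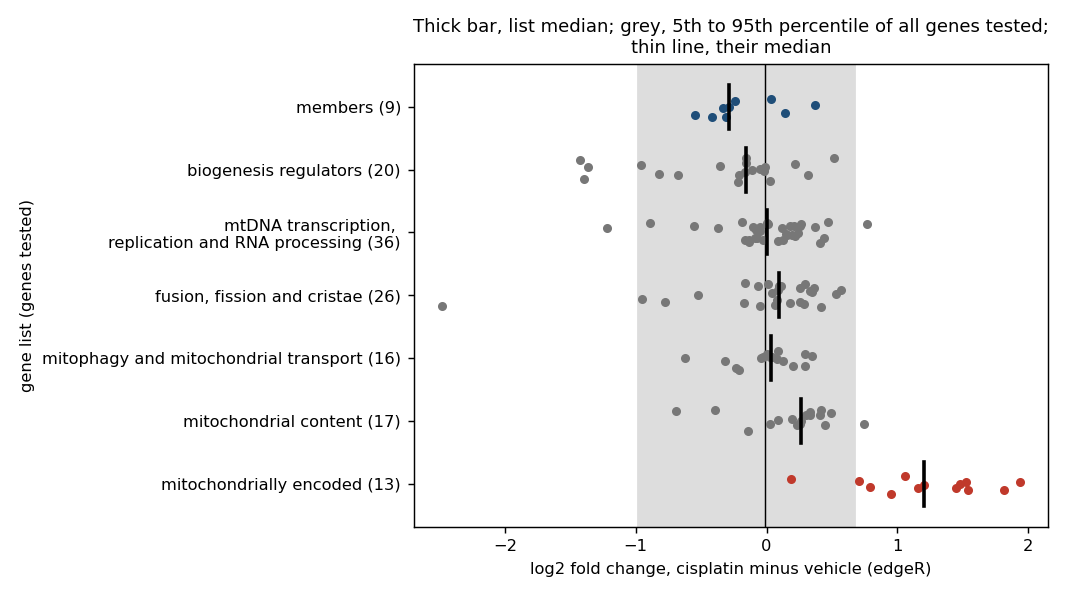
Log2 fold change (cisplatin minus vehicle, edgeR) of each tested gene in 7 lists; the thick bar is the list's median, the grey band the 5th to 95th percentile of all genes tested and the thin line their median of -0.01. The 9 genes have a median of -0.28, and the mitochondrially encoded genes one of 1.20.

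Gene length, as deposited with the counts and used for FPKM, was related to the fold changes. Across the 14719 genes, Spearman's rho between log2 fold change and gene length was -0.36 (across genes, which are not independent replicates). For the 9 genes this length is 1505 to 4048 bases, in each case shorter than the distance between the gene's coordinates. The 8269 genes in that length range had a median of 0.00113 on the log2 scale. With a length correction the median of the 9 was -0.19, that of the biogenesis regulators -0.06, that of the content genes 0.14 and that of the mitochondrially encoded genes 1.07. By gene the corrected values were Ppargc1a -0.38, Nrf1 0.24, Tfam -0.08, Tfb2m 0.33, Polrmt -0.19, Tefm -0.45, Polg -0.14, Opa1 -0.47 and Dnm1l -0.21. The part of gene length in these differences was not tested.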

How the data were processed

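Poly(A)-selected RNA of lumbar DRG, 2 libraries per treatment, was sequenced as paired 150-base reads. The authors mapped reads with HISAT2 2.0.5 to Ensembl Rnor_6.0; the submitters' processing notes also name StringTie 1.3.3b and featureCounts 1.5.0-p3. Deposited values are raw counts per gene and FPKM (count over gene length and one constant per library). The strand setting is not given in the sources used here. Depth was 21384801 to 25618417 counts per library; precision is further limited by n = 2.

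Groups and replicate numbers came from the labels, which name a rat for each library; p-values measure the spread between these libraries. edgeR 4.0.16 (R 4.3.3; TMM, filterByExpr, glmQLFit, glmQLFTest, no block) was fitted to protein-coding genes; adjusted p-values are Benjamini-Hochberg over 14719 genes. Standard errors derive from the log2 fold change and F, and CPM uses TMM scaling. Alternatives were DESeq2 1.42.0, limma 3.58.1 on log2(FPKM + 1) and log2(FPKM + 0.1), other scales and filters, a length offset (lowess span 0.3), a replicate block and omission of each library; summing the mitofusin-2 rows was chosen after seeing the data, as were the motif letters. The fit was tested on simulated data.

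All 10 genes were named. From each pathway list, called genes and the 2 highest and 2 lowest non-overlapping genes were named, with paired genes; LOC100911485 and genes called by DESeq2 were named after their values were seen. Where a symbol had 2 rows, the row with more counts was used. The 10 genes and the lists were chosen with earlier results of these data known.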

Additional observations from a re-analysis of the deposited data

How the results depend on the processing

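None of the 9 tested genes was called under any alternative, nor was Mfn2 in the 3 settings that gave it a value. Over all protein-coding genes, edgeR called 1 (LOC100911363, named after its value was seen); DESeq2 called 126, limma on FPKM 2 (pseudocount 0.1) and 4 (pseudocount 1), at least 10 counts in every library 2, no filter 2, and unadjusted p with the fold limit 1195 (412 higher, 783 lower). Leaving out each library gave 0 to 7: 0 without cisplatin replicate 1, 7 without cisplatin replicate 2, 5 without vehicle replicate 1 and 4 without vehicle replicate 2. Of the pathway genes, DESeq2 called 8 (6 higher, 2 lower) and unadjusted p with the fold limit 15 (9 higher, 6 lower).

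Both groups have a rat 1 and a rat 2 in their labels, but same-numbered rats are different animals. The deposited column names of the cisplatin libraries carry other numbers. Whether same-numbered libraries shared a litter, dissection or batch is not given in the sources used here. The replicate 2 minus replicate 1 differences of both groups had a Pearson's r of 0.44 across genes. With the replicate block, edgeR called 1665 genes (529 higher, 1136 lower) and 21 pathway genes (14 higher, 7 lower), and with block and length offset 1082 (277 higher, 805 lower) and 20 (13 higher, 7 lower). With the block, Opa1 had an adjusted p of 0.0147 in edgeR at a log2 fold change of -0.54, under the fold limit; over 16 settings its adjusted p ran from 0.0147 to 0.995. The block changed the call of none of the 9. Of the 13 mitochondrially encoded genes it called 12 higher (11 with block and length offset), where edgeR without it called 0 and DESeq2 6.

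The median of the 9 ran from -0.33 to -0.10 when each library was left out, the latter without vehicle replicate 1. Signs turned for Tfam, at -0.083 (length offset), -0.031 (library size alone) and -0.089 (block and length offset). Leaving out each library gave -0.11 (without cisplatin replicate 2) to 0.18 for Tfam, and -0.57 to 0.20 (without vehicle replicate 1) for Dnm1l. The cause was not tested. Of the 9 tested genes, depth limits Ppargc1a and Tefm most. The Mfn2 row lay under the floor of 3 counts in each library, and how reads were divided between it and the second mitofusin-2 row is not given.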
